A study of Rattus norvegicus with 16 samples.

Results

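The insulin-like growth factor (IGF) axis was followed in rat hepatoma H35 cells in which Pdrg1 had been silenced. Its members were taken as the 2 ligands Igf1 and Igf2, the receptors Igf1r and Igf2r and the 6 binding proteins Igfbp1 to Igfbp6, and every array probe whose gene name was one of these was used. All 10 genes were on the array, with 13 probes of the 30367 measured, and a gene with 2 probes was represented by the one with the higher mean.

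Arrays were hybridized with 4 biological replicates of each of 4 groups, in all 16 one-color arrays, on which the brightness of a spot (intensity) follows the amount of its transcript. All cells were H35 cells, an established rat hepatoma line, grown in DMEM with 10% fetal bovine serum and 2 mM glutamine, transfected with a plasmid and selected with G418 at 1.8 mg/ml. CN-10 was a stable clone that carried a negative control sequence, 3-44 was a stable clone with shRNA3 against Pdrg1 and 4-18 was a stable clone with shRNA4, and these 3 clones were taken on to 4 mg/ml G418. shRNA3T was a pool of cells that had received the shRNA3 plasmid and had passed the first selection only. Each stable group, the control included, is therefore 1 clone, and a difference between clones cannot be told apart from an effect of silencing. CN-10 is also a clone where shRNA3T is a pool, so the pool and the control differ in selection as well.

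IGF-1 and IGF-2 are growth factors that act through the IGF-1 receptor, a tyrosine kinase close to the insulin receptor, whereas the IGF-2 receptor (also the cation-independent mannose-6-phosphate receptor) takes IGF-2 and lysosomal enzymes into the cell and carries no kinase. The binding proteins hold the ligands in the fluid around cells and set how much reaches the receptors. Adult liver is the main source of circulating IGF-1, and hepatocytes secrete IGFBP-1, whose gene is known to be repressed by insulin and induced in fasting and stress.

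As fitted, Igfbp1 was the member with the largest change against CN-10 in each silenced group, where it was higher. Igf2r passed as modestly higher in 4-18 and shRNA3T, in shRNA3T by little. Igfbp3 and Igfbp4 were well expressed and, as fitted, did not pass the test against CN-10 in any group, Igfbp4 in shRNA3T by little. Igfbp6 was weakly expressed and, as fitted, passed between 3-44 and shRNA3T alone. Igf1, Igf2, Igf1r, Igfbp2 and Igfbp5 lay at or near the background of the arrays in all 4 groups.

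The 250 bases before the start sites of Igfbp1, of its chromosomal neighbour Igfbp3 and of Igf2r are shown. As fitted, Igfbp1 and Igf2r were the members that passed against CN-10, and Igfbp3 did not pass. The bases were read from RefSeq (build GRCr8, which is not the build of the array's coordinates), 5′ to 3′ on the strand of each gene, at chr14:86261027-86261276 (plus strand), chr14:86277945-86278194 (minus strand) and chr1:50526628-50526877 (plus strand). Capitals mark every match, on either strand, to the motifs named after the sequences.
Igfbp1: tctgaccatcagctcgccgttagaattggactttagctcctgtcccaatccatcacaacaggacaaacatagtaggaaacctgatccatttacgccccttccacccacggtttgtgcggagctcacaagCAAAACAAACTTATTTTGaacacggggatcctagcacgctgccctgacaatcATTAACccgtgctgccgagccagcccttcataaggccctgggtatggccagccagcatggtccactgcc
Igfbp3: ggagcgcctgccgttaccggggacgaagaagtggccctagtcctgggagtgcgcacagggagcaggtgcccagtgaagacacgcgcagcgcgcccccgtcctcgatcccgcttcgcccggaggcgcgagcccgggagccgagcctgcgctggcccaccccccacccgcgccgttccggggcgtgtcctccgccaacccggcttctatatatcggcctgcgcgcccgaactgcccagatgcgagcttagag
Igf2r: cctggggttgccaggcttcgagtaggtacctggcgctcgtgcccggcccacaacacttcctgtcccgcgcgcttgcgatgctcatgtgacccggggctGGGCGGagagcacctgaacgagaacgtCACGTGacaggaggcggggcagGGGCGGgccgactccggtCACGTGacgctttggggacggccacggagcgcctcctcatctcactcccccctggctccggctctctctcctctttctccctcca

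The window of Igfbp1 held CAAAACA from 121 to 115 bases before the start site and CAAAATA, on the other strand, from 110 to 104 bases before it. These are the parts of the insulin response element known from this gene, to which FOXO factors bind. CAAAACA was in 5.46% and CAAAATA in 4.46% of the 33469 windows of the same length, and the whole stretch of Igfbp1 that spans them, CAAAACAAACTTATTTTG, was in 1 window, its own. That stretch was copied from the Igfbp1 window, so its match there was fixed in advance. The count does not measure how rare the element is. Igfbp1 also held GTTAAT, part of the site of the liver factor HNF1, from 69 to 64 bases before the start on the other strand, letters found in 6.45% of windows. The window of Igf2r held the E box CACGTG at 2 places (5.59% of windows hold it) and the GC box GGGCGG at 2 places (30.5% of windows). Among the other members, the dim genes Igf1r and Igfbp2 held both boxes and Igf2 held the GC box. The window of Igfbp3 held none of these letters. TATAAA, which was in 12.9% of windows, was in none of the windows shown and among the members only in that of Igfbp4. Windows were found for 10 of the 10 members, and besides Igfbp1 only that of Igf1 held CAAAACA. A match is a string of letters and was not tested for binding here.

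Pdrg1, the targeted gene, had a mean log2 normalized intensity of 13.64 ± 0.22 (SD, n = 4) in the control clone CN-10, against 12.87 ± 0.87 for 4-18, 12.65 ± 0.51 for 3-44 and 12.79 ± 0.27 for shRNA3T. It was 1.70-fold lower in 4-18, 1.99-fold lower in 3-44 and 1.80-fold lower in shRNA3T, with adjusted p = 0.129, 0.105 and 0.143 in limma, and no array of a silenced group reached the lowest array of CN-10 (two-sided exact permutation p = 0.0286 in each, the smallest that 4 arrays against 4 allow). Between 61.0% and 71.1% of probes were well above background on the arrays of 3-44, 62.0% to 66.1% in CN-10 and 59.1% to 67.0% in shRNA3T, against 45.9% to 58.6% in 4-18, whose arrays were the dimmest. The 4 groups were placed on 4 slides, 1 group on each, and 12 arrays shared a scan day that 4-18 did not have, so that a difference of slide or, for 4-18, of scan day cannot be told apart from a group difference. The H35 label was set against cell type markers. Of 12 hepatocyte or hepatoma markers 6 were well above background on all 16 arrays and 12 on at least 12 arrays. Of 8 stellate cell or fibroblast markers, 5 endothelial, 6 macrophage and 4 cholangiocyte markers, 4, 1, 3 and 1 were well above background on at least 12 arrays and 2, 3, 2 and 1 on none, so that some markers of other cell types, Col1a1 and Cdh5 among them, gave dim signal. Of these lists 5 genes passed against CN-10 in some group. The stellate cell marker Des fell by a log2 fold change of 1.17 for 4-18, 0.81 for 3-44 and 0.98 for the pool (adjusted p = 4.54e-05, 0.00358 and 0.000511 in limma), from a mean of 8.27 in CN-10, and the cholangiocyte marker Krt19, well above background on 4 of 16 arrays, was lower by values of -0.33, -0.54 and -0.52 in the same order (adjusted p = 0.0431, 0.00694 and 0.00527). These are all the silenced groups, and Igfbp1 rose in each of them as fitted. Acta2 (-0.46, adjusted p = 0.0412) and Cd68 (-0.43, adjusted p = 0.0142) fell in 4-18, and Col1a1 rose in shRNA3T (0.52, adjusted p = 0.0338). The log2 of the summed intensity of the stellate cell or fibroblast list ranged from 10.26 to 10.39 in CN-10, 10.05 to 10.18 in 4-18, 10.12 to 10.23 in 3-44 and 10.19 to 10.38 in shRNA3T. Summed over its list, the hepatocyte markers' log2 intensity ranged from 18.36 to 19.11 in CN-10, 18.74 to 19.16 in 4-18, 18.59 to 19.81 in 3-44 and 18.82 to 19.50 in shRNA3T, a sum carried by the brightest probes. Single hepatocyte markers moved. Ttr (transthyretin) rose by a log2 fold change of 2.93 in 4-18, 2.84 in 3-44 and 2.39 in shRNA3T (adjusted p = 2.21e-05, 0.000125 and 0.000319 in limma). Apoa1, an apolipoprotein, was -2.12 in 4-18 and 2.18 in 3-44 (adjusted p = 1.50e-05 and 5.47e-05) and 0.038 in shRNA3T (adjusted p = 0.968). In all, 1 of the 12 passed as higher and 5 as lower in 4-18, 4 and 0 in 3-44, and 3 and 1 in shRNA3T. The part of these markers in the results was not tested. All probes read bulk RNA of cells labelled as a single line, in which fewer cells that express a gene and less RNA per cell cannot be told apart.

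Igfbp1 was read by 1 probe on chromosome 14 (rn4, chr14:87954736-87954795), which was well above background and not saturated on all 16 arrays. Its log2 normalized intensity on the CN-10 arrays was 14.49, 14.08, 14.40 and 14.17. On the 4-18 arrays it was 16.01, 15.49, 15.63 and 15.15, and on the 3-44 arrays 14.62, 14.79, 15.10 and 15.21. On the shRNA3T arrays it was 16.50, 16.18, 16.26 and 16.15. Every array of every silenced group was therefore above every array of CN-10, and shRNA3T was above all the others.

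Against CN-10, Igfbp1 rose 2.44-fold in 4-18 (95% interval 1.89 to 3.14, log2 fold change 1.29, SE 0.17, adjusted p = 5.48e-05 in limma with Benjamini-Hochberg adjustment over all probes). It rose 1.57-fold in 3-44 (1.22 to 2.02, log2 fold change 0.65, adjusted p = 0.0298) and 3.97-fold in shRNA3T (3.08 to 5.11, log2 fold change 1.99, adjusted p = 2.50e-06). The exact permutation p was 0.0286 in each. The rise in shRNA3T passed under each of the 33 alternative settings, with log2 fold changes between 1.71 and 2.06. Many of these settings, such as a probe filter or leaving out an array of another group, cannot move the log2 fold change. Such settings act on the adjusted p alone, so the counts of settings passed here and below include them. The rise in 4-18 passed under 32 of 33, the exception being the authors' deposited log2 values, unscaled between arrays, which gave 0.57 (adjusted p = 0.139). It stayed under 2-fold with those values, with median scaling (0.81, adjusted p = 0.0358) and, at the edge of the limit, with quantile-normalized processed signal (0.999, adjusted p = 0.00163). On the deposited values Igfbp3 changed more in 4-18 than Igfbp1 did, and with processed signal the dim genes Igf2 in 4-18 (1.22 with 75th percentile scaling, adjusted p = 0.0812) and Igf1 in 3-44 (0.97 with quantile normalization, adjusted p = 0.557) had larger values than Igfbp1 without passing. The smaller rise in 3-44 passed under 25 of 33, and it no longer passed when CN-10 replicate 2 (0.58) or 4 (0.61) or 3-44 replicate 3 (0.59) or 4 (0.55) was left out, with adjusted p from 0.0768 to 0.0989. The other losses in 3-44 came with a change of scaling or signal, at much the same log2 fold change: 0.69 with 75th percentile scaling (adjusted p = 0.183), 0.71 with median scaling (0.451), 0.68 with quantile-normalized processed signal (0.0564) and 0.58 with the deposited values (0.542).

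The order of Igfbp1 levels was shRNA3T, 4-18, 3-44 and CN-10, and each step of that order passed in limma. The step from 4-18 to shRNA3T was a log2 fold change of 0.70 lower in 4-18 (-0.70, SE 0.17, adjusted p = 0.00807), with no overlap of arrays. The step from 3-44 to 4-18 was 0.64 (SE 0.17, adjusted p = 0.0136), but here the highest 3-44 array, at 15.21, was above the lowest 4-18 array, at 15.15, and the exact permutation p was 0.0571. It passed under 27 of 33 alternative settings. It was lost with processed signal (0.36 with 75th percentile scaling and 0.32 with quantile normalization, adjusted p = 0.206 and 0.254), with median scaling (0.10, adjusted p = 0.809), without the first replicate of every group (0.39, adjusted p = 0.0774) and, at 0.64, when the arrays of the comparison were fitted alone (adjusted p = 0.0664). On the deposited unscaled values it was -0.0029 (adjusted p = 0.993), so the neighbours 3-44 and 4-18 are not firmly ordered. The pool and the clone made with the same shRNA3 plasmid, shRNA3T and 3-44, stood furthest apart among the silenced groups, with a log2 fold change of -1.34 for 3-44 against shRNA3T (SE 0.17, adjusted p = 0.000122).

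**Figure D1:**
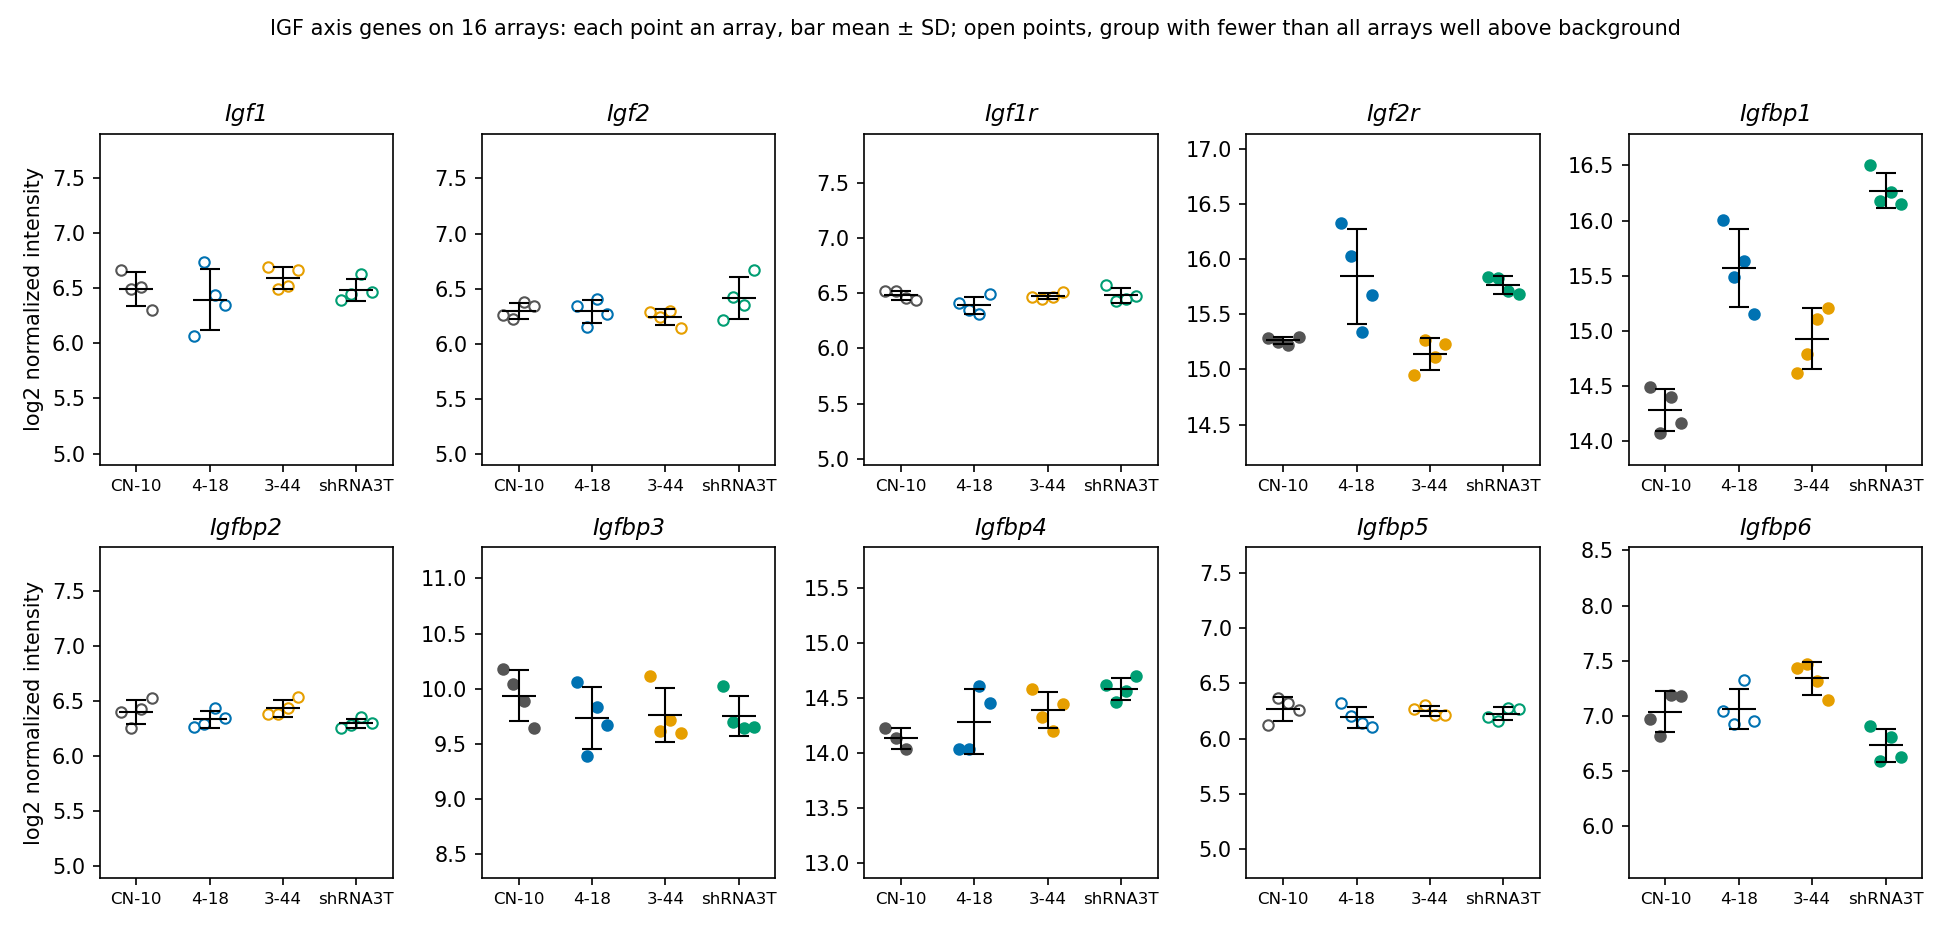
Log2 normalized intensity (vertical axis, a span of the same height in each panel) of the 10 IGF axis genes on each of 16 arrays by group. Points are arrays, bars are the mean ± SD, and open points mark a group in which not all arrays were well above background. Igfbp1 runs from a mean of 14.28 in CN-10 to 16.27 in shRNA3T, while Igf1, Igf2, Igf1r, Igfbp2 and Igfbp5 stay near the background.

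Igfbp3 codes for the main carrier of IGFs in blood and lies beside Igfbp1 on chromosome 14. Its probe (rn4, chr14:87959244-87959303, minus strand) was 4448 bases from that of Igfbp1, the genes being read towards each other. Igfbp3 was well above background on all 16 arrays, with intensities of 10.18, 10.04, 9.89 and 9.64 in CN-10, 10.06, 9.39, 9.84 and 9.67 in 4-18, 10.12, 9.61, 9.72 and 9.60 in 3-44, and 10.02, 9.69, 9.64 and 9.65 in shRNA3T. The 4 groups overlapped throughout, and replicate 1 was the highest array in each. Against CN-10 the log2 fold change was -0.20 in 4-18 (95% interval of the fold 0.689 to 1.10), -0.18 in 3-44 (0.700 to 1.12) and -0.18 in shRNA3T (0.696 to 1.11), with adjusted p = 0.424, 0.619 and 0.587 in limma. Without the first replicate of every group, these values were -0.23, -0.21 and -0.19 (adjusted p = 0.224, 0.361 and 0.386). The intervals above leave out a rise of the size seen for Igfbp1 in the same groups. With median scaling (log2 fold change -0.54, adjusted p = 0.0497) and with the deposited values (-0.79, adjusted p = 0.0243), Igfbp3 passed as lower in 4-18.

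The unequal change of the neighbours was described within each array, as Igfbp1 minus Igfbp3, a comparison chosen after their values were seen. Its p-values restate the difference that prompted it and are no separate support for it. Relative to Igfbp3, the log2 change of Igfbp1 against CN-10 was 1.49 in 4-18 and 2.17 in shRNA3T (two-sided exact permutation p = 0.0286 in both). It was 0.82 in 3-44 (exact permutation p = 0.0857), where the arrays of the groups overlapped.

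**Figure D2:**
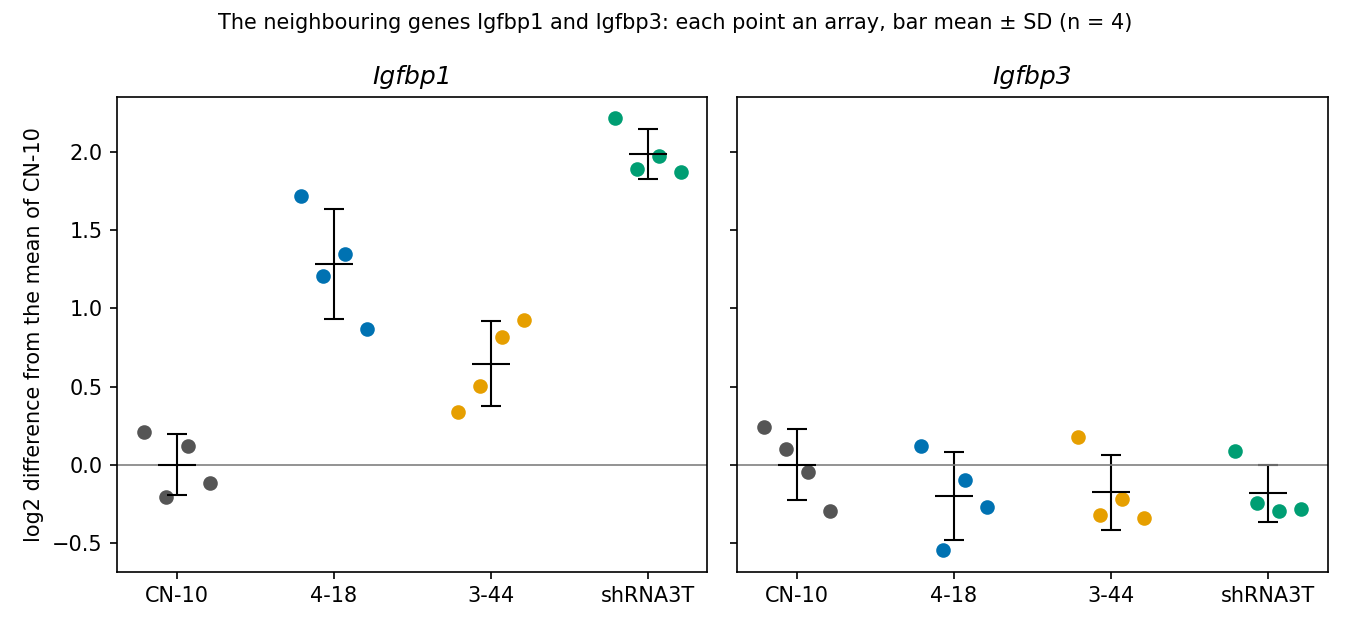
Log2 difference of each array from the mean of CN-10 (vertical axis) for the neighbouring genes Igfbp1 (left) and Igfbp3 (right) by group. Points are arrays and bars are the mean ± SD (n = 4). Igfbp1 lies above 0 on all 12 arrays of the silenced groups, and the Igfbp3 means of those groups lie between -0.20 and -0.18.

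Of the receptors, Igf2r was read by 1 probe on chromosome 1 (rn4, chr1:42340766-42340825), well above background on all 16 arrays. Its log2 normalized intensity was 15.28, 15.25, 15.22 and 15.30 in CN-10. It was 16.33, 16.03, 15.34 and 15.68 in 4-18 and 14.95, 15.27, 15.11 and 15.23 in 3-44. In shRNA3T it was 15.83, 15.83, 15.71 and 15.68. The arrays of 4-18 and shRNA3T all lay above those of CN-10, those of 3-44 overlapped CN-10, and 4-18 was the most scattered group (SD 0.43, against 0.032 in CN-10).

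Igf2r rose in 4-18 by a log2 fold change of 0.58 (SE 0.15, 95% interval of the fold 1.19 to 1.88, adjusted p = 0.0123 in limma). The pool shRNA3T showed a rise of 0.50 (SE 0.15, 95% interval of the fold 1.13 to 1.78, adjusted p = 0.0469). In 3-44 its fold was 0.917 (0.730 to 1.15, adjusted p = 0.742). The differences between silenced groups were tested directly. For 4-18 against 3-44 the log2 fold change of Igf2r was 0.71 (SE 0.15, adjusted p = 0.00377) and for 3-44 against shRNA3T it was -0.63 (adjusted p = 0.0161), whereas 4-18 and shRNA3T overlapped (0.08, 95% interval of the fold 0.840 to 1.33, adjusted p = 0.799). As fitted, 4-18 and shRNA3T, not separated from each other, lay above CN-10 and 3-44, not separated from each other.

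The rise of Igf2r in shRNA3T, which like that in 4-18 was under 2-fold, was near the limit of the adjusted p. It passed under 13 of 33 alternative settings, with log2 fold changes from 0.13 to 0.60, and was lost when any 1 of 11 arrays was left out (CN-10 replicates 1 to 4, shRNA3T replicates 1 to 4 and 3-44 replicates 2 to 4, log2 fold change 0.48 to 0.53, adjusted p 0.0576 to 0.108). The rise in 4-18 passed under 28 of 33 and turned to -0.067 (adjusted p = 0.847) on the deposited unscaled values. It was also lost with median scaling (0.15, adjusted p = 0.693), with processed signal (0.35 with quantile normalization and 0.52 with 75th percentile scaling, adjusted p = 0.179 and 0.0553) and when the arrays of the comparison were fitted alone (0.58, adjusted p = 0.0724). The direct differences also depended on the scaling and signal. That of 4-18 against 3-44 passed under 29 of 33 settings and was lost with processed signal (0.40 with 75th percentile scaling and 0.32 with quantile normalization), with median scaling (0.17) and on the deposited values (0.076, adjusted p = 0.831). That of 3-44 against shRNA3T passed under 27 of 33. It was -0.087 and -0.091 with processed signal (adjusted p = 0.848 in both), and it was lost at -0.59 with 75th percentile scaling, -0.60 with median scaling, -0.74 on the deposited values and -0.56 without 3-44 replicate 1 (adjusted p = 0.196, 0.443, 0.233 and 0.0506).

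**Figure D3:**
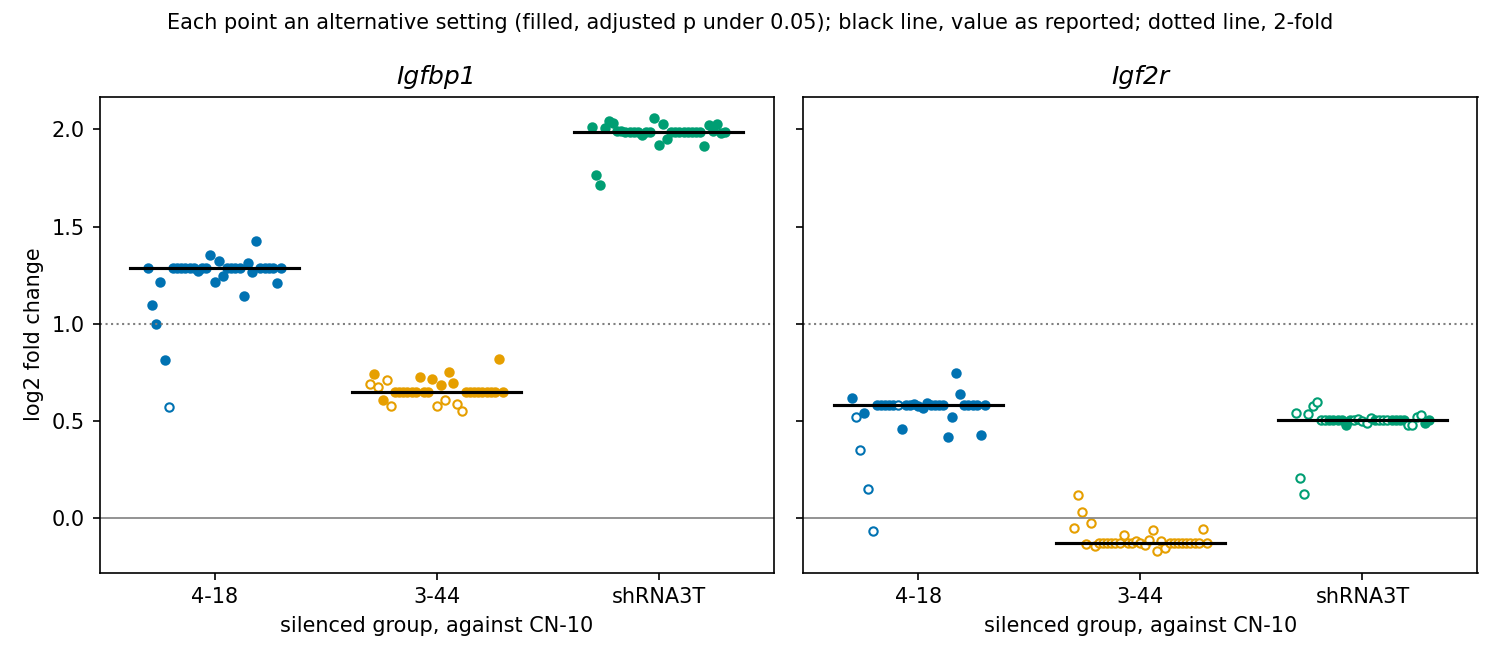
Log2 fold change against CN-10 (vertical axis) of Igfbp1 and Igf2r in each silenced group under each of 33 alternative settings. Each point is a setting, filled where the adjusted p was under 0.05, the black line is the value as reported and the dotted line is 2-fold. Igfbp1 in shRNA3T stays between 1.71 and 2.06, and Igf2r in shRNA3T lies between 0.13 and 0.60 with 13 filled points.

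Igf1r, the receptor through which both ligands signal, was read by 10 spots of 1 probe (rn4, chr1:122989150-122989209). Mean log2 intensities for CN-10, 4-18, 3-44 and shRNA3T were 6.48 ± 0.042, 6.39 ± 0.078, 6.47 ± 0.027 and 6.48 ± 0.067 (SD, n = 4), and the probe was well above background on 3 of 16 arrays. The ligand Igf2 was well above background on 1 of 16 arrays and Igf1 on 6 by 1 probe and 1 by the other. So neither ligand nor the signalling receptor had a level that these arrays could place above background in all samples of any group.

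Among the binding proteins, Igfbp2 was well above background on 2 and 1 of 16 arrays by its 2 probes and Igfbp5 on 0 and 1. These genes lie beside each other on chromosome 9, 6121 bases apart from probe to probe. The 8 probes of these 5 dim genes ranged from 5.94 to 6.73 on the log2 scale, where the lowest probe well above background on an array lay between 5.87 and 6.81. Over 48 tests of these probes the difference in log2 signal ran from -0.24 to 0.27 and the adjusted p from 0.145 to 0.996 in limma. As fitted, a difference was not detectable for these 5 genes at this brightness, which does not show that there was none. Other settings placed them on opposite sides. With 75th percentile and median scaling all 5 passed as higher in 4-18 against CN-10 (the values are given with the processing), whereas with quantile-normalized processed signal Igf1r passed as lower in 4-18, at -0.83 against CN-10, -1.01 against 3-44 and -0.90 against shRNA3T (adjusted p = 0.0170, 0.00693 and 0.0144).

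Igfbp4, a binding protein that mostly restrains IGF action, was read by 1 probe on chromosome 10 (rn4, chr10:87834213-87834272). Its log2 intensity was 14.23, 14.13 and 14.04 on 3 CN-10 arrays, the spot of CN-10 replicate 4 having been set aside as an outlier by the scanner software. It was 14.03, 14.03, 14.61 and 14.45 in 4-18, 14.58, 14.33, 14.20 and 14.45 in 3-44, and 14.62, 14.46, 14.56 and 14.70 in shRNA3T. All shRNA3T arrays lay above the 3 CN-10 arrays, and the other silenced groups overlapped CN-10. The log2 fold change was 0.45 in shRNA3T (SE 0.14, adjusted p = 0.0509 in limma), which missed the limit, 0.26 in 3-44 (adjusted p = 0.351) and 0.15 in 4-18 (adjusted p = 0.510). The value in shRNA3T passed under 10 of 32 alternative settings, with log2 fold changes from 0.39 to 0.64 over all of them. With the outlier spot kept, it was 0.64 (adjusted p = 0.0244), with quantile-normalized processed signal 0.51 (adjusted p = 0.0333) and with array weights 0.47 (adjusted p = 0.00287). At 0.45 it passed when the arrays of the comparison were fitted alone (adjusted p = 0.00908), with a filter on probes well above background in a group (0.0459) and with the mean over a gene's probes (0.0486). It also passed at 0.45 when 4-18 replicate 1, 2 or 3 or 3-44 replicate 1 was left out (adjusted p from 0.0253 to 0.0448), arrays that are not part of the comparison and enter by the shared spread and by the adjustment. In 4-18 Igfbp4 passed with processed signal under either scaling (0.50 and 0.42, adjusted p = 0.0268 and 0.0386) and under no other setting. With median scaling and the deposited values it turned to -0.33 and -0.55 there, without passing (adjusted p = 0.313 and 0.172). Under those settings Igfbp4 passed as lower in 4-18 against 3-44 (-0.63 and -0.74, adjusted p = 0.0489 and 0.0455). Against shRNA3T it also passed as lower in 4-18 under them (-0.76 and -0.98, adjusted p = 0.0137 and 0.00798).

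Igfbp6, a binding protein that prefers IGF-2, was read by 1 probe on chromosome 7 (rn4, chr7:140888422-140888481), well above background on 15 of 16 arrays and close to it. Its log2 intensity was 6.97, 6.81, 7.19 and 7.18 in CN-10 and 7.04, 6.92, 7.33 and 6.95 in 4-18. It was 7.43, 7.47, 7.32 and 7.14 in 3-44 and 6.91, 6.59, 6.80 and 6.63 in shRNA3T. No group passed against CN-10 (log2 fold change 0.023 in 4-18, 0.30 in 3-44 and -0.30 in shRNA3T, adjusted p = 0.924, 0.154 and 0.118 in limma). Under single alternatives it passed in 3-44 with array weights (0.33, adjusted p = 0.0356), in shRNA3T with array weights (-0.32, adjusted p = 0.0240) and cyclic loess (-0.44, adjusted p = 0.0237), and in 4-18 with 75th percentile scaling (0.87, adjusted p = 0.0349). With processed signal the value in 4-18 had the other sign, -0.43 with 75th percentile scaling and -0.23 with quantile normalization (adjusted p = 0.241 and 0.606). The clone 3-44 was 1.52-fold above the pool shRNA3T (95% interval 1.28 to 1.81, log2 fold change 0.61, SE 0.12, adjusted p = 0.00344), with no overlap of arrays. Over 32 alternative settings it ran from 0.56 to 1.26 and passed under 30, the highest values being those with processed signal (1.26 and 1.14), and it was lost with 75th percentile scaling (0.84, adjusted p = 0.266) and on the deposited values (0.68, adjusted p = 0.708). This is the opposite direction to Igfbp1 and Igf2r in the same comparison.

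Counted over the 10 genes, 2 passed the adjusted p of 0.05 in 4-18 against CN-10, both higher, where 23.6% of all probes passed in either direction and 11.6% as higher. In 3-44 1 passed, as higher (7.85% and 3.48% of all probes). In shRNA3T 2 passed, both higher (11.9% and 5% of all probes). With a change of at least 2-fold also asked, Igfbp1 was called in 4-18 and in shRNA3T and no member in 3-44, against 5.91%, 2.29% and 1.4% of all probes, and the call in 4-18 was lost under the 3 settings given with that gene. With 10 genes these counts do not stand apart from the shares over all probes, and the median log2 fold change over the 10 genes was -0.035, 0.011 and -0.0056 in 4-18, 3-44 and shRNA3T, beside 0.0057, -0.0031 and -0.0072 over all probes.

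Between silenced groups, Igfbp1 and Igf2r passed in 4-18 against 3-44 (22.1% of all probes did, and 4.81% with 2-fold). Igfbp1 passed in 4-18 against shRNA3T (20.1%, and 4.32% with 2-fold), and Igfbp1, Igf2r and Igfbp6 passed in 3-44 against shRNA3T (10.6%, and 2% with 2-fold). Of these only Igfbp1 in 3-44 against shRNA3T was also 2-fold. The 3 comparisons with CN-10 share its arrays. When arrays were scaled to their 75th percentile instead of quantile normalized, the median of all probes in 4-18 against CN-10 moved to 0.86 and 6 members were called there, all as higher and 5 of them the dim genes above, so that calls in 4-18 are given relative to the bulk of probes.

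**Figure D4:**
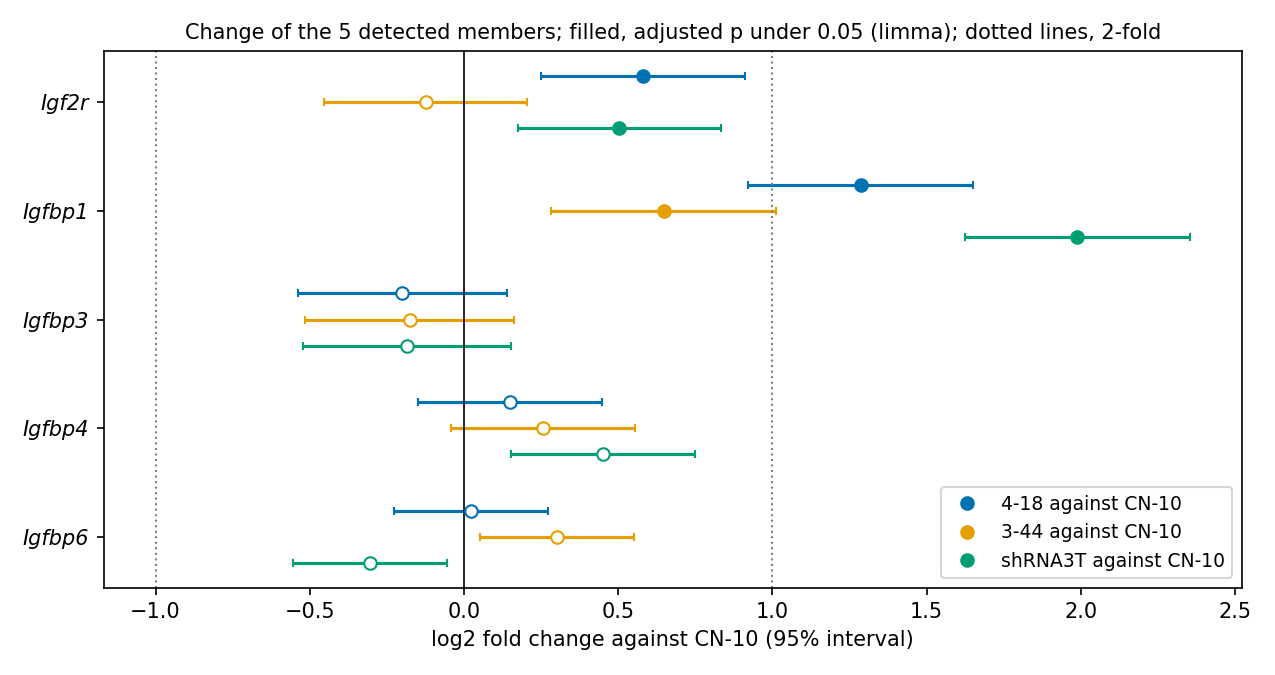
Log2 fold change against CN-10 of the 5 IGF axis genes with signal above background (horizontal axis) in 4-18, 3-44 and shRNA3T. Points are fitted values from 4 arrays per group (3 for Igfbp4 in CN-10), bars are 95% intervals from limma, filled points have an adjusted p under 0.05 and dotted lines mark 2-fold. The 5 filled points are Igfbp1 in all 3 groups and Igf2r in 4-18 and shRNA3T.

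The rest of the pathway was read from a list of 50 genes of insulin and IGF signalling, growth hormone signalling and IGF binding protein turnover, of which 47 were on the array by name, 26 were well above background on all 16 arrays and 8 on none. In 4-18 against CN-10, 8 passed as higher and 3 as lower. In 3-44, 5 passed as higher and 0 as lower, and in shRNA3T 4 as higher and 2 as lower. With both directions pooled these were 23.4%, 10.6% and 12.8% of the list, beside 23.6%, 7.85% and 11.9% of all probes. As higher, 17%, 10.6% and 8.51% of the list passed, beside 11.6%, 3.48% and 5% of all probes, and as lower 6.38%, 0% and 4.26%, beside 12%, 4.37% and 6.85% of all probes. The median log2 fold change of the list was 0.070, 0.071 and 0.041 in these groups, beside 0.0057, -0.0031 and -0.0072 over all probes. Of the list, 5 genes were called (at least 2-fold) against CN-10 in at least 1 group. In 4-18, 3-44 and shRNA3T 4, 1 and 1 were called, or 8.51%, 2.13% and 2.13% of the list beside 5.91%, 1.4% and 2.29% of all probes, shares near the background, and the genes are described for their own values. Those values are as fitted, and the alternative settings are not given for them.

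Htra1, a secreted serine protease that can cut IGF binding proteins, had a log2 intensity that ran from 10.98 to 11.18 in CN-10, 9.66 to 10.07 in 4-18, 11.51 to 11.86 in 3-44 and 9.95 to 10.17 in shRNA3T. It fell in 4-18 (log2 fold change -1.26, SE 0.098, adjusted p = 3.11e-07 in limma) and in shRNA3T (-1.01, adjusted p = 8.25e-06) and rose in 3-44 (0.55, adjusted p = 0.00246). The arrays of 3-44 lay above and those of 4-18 and shRNA3T below all CN-10 arrays. As fitted, the 2 groups in which Htra1 fell were those in which Igf2r passed as higher, in shRNA3T near the limit. A link between the genes was not tested.

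Igfbpl1, which codes for a protein with an IGF binding protein domain, rose 2.17-fold in 3-44 (log2 fold change 1.12, SE 0.094, adjusted p = 3.21e-06), where its log2 intensity of 7.88 to 8.22 lay above the 6.87 to 7.20 of CN-10. It also passed in shRNA3T at 0.35 (adjusted p = 0.0221), and was -0.07 in 4-18 (adjusted p = 0.668), where 2 of 4 arrays were well above background.

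Irs2, an adaptor that carries the signal of the insulin and IGF-1 receptors to phosphoinositide 3-kinase, moved in opposite directions. Its log2 intensity was 12.11 to 12.74 in CN-10, 10.62 to 11.89 in 4-18, 12.30 to 12.51 in 3-44 and 13.40 to 13.51 in shRNA3T. It fell in 4-18 (log2 fold change -1.42, SE 0.21, adjusted p = 0.000168 in limma) and rose in shRNA3T (0.93, adjusted p = 0.00898), with 3-44 at -0.08 (adjusted p = 0.899). The 2 groups in which Igfbp1 was 2-fold higher thus lay on opposite sides of CN-10 for Irs2.

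Pik3r1, the regulatory subunit of phosphoinositide 3-kinase, passed as higher in all 3 groups. The log2 fold change was 1.003 for 4-18 (SE 0.13, adjusted p = 6.26e-05 in limma), 0.84 for 3-44 (adjusted p = 0.00106) and 0.999 for the pool (adjusted p = 0.000152). The 2-fold limit lay between nearly equal values, so that Pik3r1 was called in 4-18 and not in the pool. The log2 intensity of Pik3r1 was 8.41 to 8.86 in CN-10 and 9.34 to 9.95 over the silenced groups. Shc1, an adaptor that links these receptors to the Ras pathway, fell in 4-18 (-1.07, SE 0.19, adjusted p = 0.000591) and was -0.13 in 3-44 and -0.29 in shRNA3T (adjusted p = 0.781 and 0.400).

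The probes whose pattern over the 16 arrays was most like that of Igfbp1 were sought among the 12590 well above background on all arrays. Besides a probe for an mRNA sequence without a gene symbol (Pearson r = 0.947), the nearest were Creb3l3, a liver transcription factor of the endoplasmic reticulum that responds to fasting (r = 0.944), and the cytochrome P450 gene Cyp2d4 (r = 0.941). Their log2 fold changes in 4-18, 3-44 and shRNA3T were 1.36, 0.84 and 1.68 for Creb3l3 and 1.14, 0.67 and 1.81 for Cyp2d4. The 16 points share their 4 groups and slides, and these correlations are given as a description.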

How the data were processed

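RNA of H35 cells, 4 biological replicates per group, was hybridized by the authors to one-color 4x44K rat arrays. The authors deposited Feature Extraction 10.7.3.1 output, in which spot and background intensity are linear and not normalized, and a table of log2 values that equals normexp-corrected median signal without scaling between arrays (within 4e-11, after lost decimal points were restored).

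From the deposited intensity values, background was corrected with normexp (offset 50) in limma 3.58.1 (R 4.3.3), control spots were left out, arrays were quantile normalized on log2, outlier-flagged spots were set aside and spots of a probe averaged. One mean per group was fitted over 16 arrays with empirical Bayes moderation and Benjamini-Hochberg adjustment over all probes. A gene was called at an adjusted p under 0.05 and at least 2-fold. A probe was well above background on an array where more than 1 in 2 of its spots carried that flag. The fit and the calling rule were tested on simulated normalized values with planted changes well over 2-fold. Background correction, normalization and the setting aside of spots were not tested in this way. The number of arrays limits the precision. The study's labels gave all groups, and p-values measure the spread between these samples of a clone or pool.

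The genes named are all members with every probe, Pdrg1, the genes of the pathway list called against CN-10 and the 3 gene names (1 an mRNA accession, not printed) most like each called member. The cell type markers printed were named after their values were seen. Members, lists and tests were chosen with earlier results of these data known. Alternatives changed the background correction, scaling, signal, outlier spots, filters, moderation, array weights, a replicate block, probe averaging, fold limits and left out each array in turn. Probe positions are on rn4 per the file headers, and exons are not stated because no annotation of that build was used here. Names were those of the array files.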

Additional observations from a re-analysis of the deposited data

Results flagged for a closer look

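Over 39 sets of 4 arrays (10 members, 4 groups, without the set that lost a spot), 1 held an array that stood apart: Igfbp3 in shRNA3T, where replicate 1 at 10.02 lay away from 9.69, 9.64 and 9.65, with a gap of 0.868 of the range, past Dixon's critical value for 4 samples. Replicate 1 was also the highest Igfbp3 array in CN-10 (10.18), 4-18 (10.06) and 3-44 (10.12). Chance sets apart about 1 in 20 such sets.

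Some responses differed between silenced groups in the direct test. Igfbp1 differed by log2 0.64 in 4-18 against 3-44, -0.70 in 4-18 against shRNA3T and -1.34 in 3-44 against shRNA3T. Igf2r differed by 0.71 in 4-18 against 3-44 and -0.63 in 3-44 against shRNA3T. Igfbp6 differed by 0.61 in 3-44 against shRNA3T. The clone 3-44 and the pool shRNA3T carried the same shRNA3 plasmid, and they differed in all 3 genes. Clone, slide and group cannot be told apart here.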

How the results depend on the processing

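Over the 60 log2 fold changes of single members, 1797 of 1908 values under an alternative kept their side of the limit, 50 lost and 39 gained the adjusted p of 0.05 in the same direction, and 22 turned with a pass on one side. Many of these values come from settings that cannot move the fold change itself, so the share kept is not a measure of robustness. Of the 1797, 145 changed sign with neither value passing, 97 of them of the 5 dim genes, and 1652 kept their sign. The 22 turned values were mainly of dim probes in 4-18 after scaling that moved all probes there. With 75th percentile scaling of normexp values (median of all probes 0.86 in 4-18 against CN-10, 0.84 against 3-44 and 0.97 against shRNA3T) Igf1, Igf2, Igf1r, Igfbp2 and Igfbp5 were 1.14, 1.25, 1.09, 1.16 and 1.24 in 4-18 against CN-10, Igfbp5 was 1.13 against 3-44, and Igf1, Igf2, Igf1r and Igfbp5 were 1.27, 1.24, 1.22 and 1.37 against shRNA3T. With median scaling (shifts 0.39, 0.35 and 0.46) the same values were 0.66, 0.78, 0.62, 0.69 and 0.77, then 0.64, then 0.77, 0.73, 0.72 and 0.87. With the deposited values Igf2r was -0.067 in 4-18 against CN-10 and Igfbp1 -0.0029 in 4-18 against 3-44.

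The number of members called in 4-18 against CN-10 (1) became 6 with 75th percentile scaling, 0 with quantile-normalized processed signal (Igfbp1 at 0.999, adjusted p = 0.00163), median scaling or the deposited values, and 2 with no fold limit. In 3-44 (0) it was 1 with no fold limit or a limit of 1.5-fold. In shRNA3T (1) it was 2 with no fold limit. In 4-18 against 3-44 (0) it was 2 with 75th percentile scaling, no fold limit or 1.5-fold, and 1, Igf1r as lower (-1.01), with quantile-normalized processed signal. In 4-18 against shRNA3T (0) it was 6 with 75th percentile scaling and 1 with median scaling, the deposited values, no fold limit or 1.5-fold. In 3-44 against shRNA3T (1) it was 2 with processed signal under either scaling and 3 with no fold limit or 1.5-fold. The cause of these moves, beyond the shifts given, was not tested. Leaving out any 1 array changed none of these counts, nor did leaving out the first replicate of every group, an alternative chosen after seeing the data.

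Replicates of different groups share numbers, but same-numbered arrays deviated together with correlations from -0.11 to 0.44 over 24 pairs and 7 of 16 arrays correlated best with their own number, so the numbers were not taken to pair the samples. All 6 pairs of replicate 1 arrays, however, correlated at 0.18 to 0.44, and without the first replicate of every group Igfbp1 in 4-18 against 3-44 was lost (0.39, adjusted p = 0.0774 in limma). With the replicate block 1, 0 and 1 members were called against CN-10 and 0, 0 and 1 between silenced groups, as without it, and the calls over all probes went from 1795, 426 and 694 to 1819, 458 and 702 against CN-10. The block moved Igfbp6 in 4-18 against shRNA3T past the limit (0.33, adjusted p = 0.0492 in limma, from 0.0622). That difference passed under 6 of 32 alternative settings and ran from 0.24 to 1.41 over all of them. It passed with 75th percentile scaling (1.41, adjusted p = 0.00956), median scaling (0.90, adjusted p = 0.00245), cyclic loess (0.41, adjusted p = 0.0304) and array weights (0.39, adjusted p = 0.0360). Leaving out shRNA3T replicate 1 also moved it past the limit (0.39). Leaving out 4-18 replicate 3 did so for Igfbp6 in 4-18 against 3-44 (-0.37) and Igfbp4 in 4-18 against shRNA3T (-0.41). Igfbp6 in 4-18 against 3-44 also passed with processed signal and 75th percentile scaling (-0.83, adjusted p = 0.0408), and reached 0.56 at the other end of its settings. Igfbp4 in 4-18 against shRNA3T also passed with median scaling (-0.76) and the deposited values (-0.98). Brightness limits Igf1, Igf2, Igf1r, Igfbp2 and Igfbp5, whose values above are differences in log2 signal near background.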
